A study of Mus musculus with 24 samples.

Results

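The cytosolic ribosomal protein genes are 84 of the 16604 mouse genes measured. They were taken by name, as every protein-coding gene whose symbol begins with Rpl or Rps followed by a digit, together with Rplp0, Rplp1, Rplp2 and Rpsa, and without the Rps6 kinase genes and the names that mark pseudogenes. Of these, 43 encode proteins of the large subunit, 3 the acidic stalk proteins, 31 proteins of the small subunit and 6 close paralogs of them (Rpl3l, Rpl7l1, Rpl22l1, Rpl36al, Rps27l and Rps27rt). The remaining gene, Rps19bp1, meets the naming rule but encodes a protein that binds RPS19 and is no part of the ribosome. A further 2 annotated genes with such names, Rpl10l and Rpl39l, were not analysed here.

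Each ribosome carries 1 copy of nearly every ribosomal protein, and the genes are transcribed at high levels in dividing cells. Many of their mRNAs begin with a C followed by a run of pyrimidines, the 5′ terminal oligopyrimidine (TOP) tract, through which mTORC1 and LARP1 control their translation and stability. Assembly of the subunits takes place in the nucleolus and needs a separate set of biogenesis factors, many of them targets of Myc. Stellate cells are the main source of scar matrix in the injured liver, and TGFb is the best known signal for their conversion to matrix-producing myofibroblasts.

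Starts of some of the genes with changes described here are shown first. They are given as 30 bases that run from 10 before to 20 after the transcription start that RefSeq gives on GRCm38.p6. Capitals mark a TOP-like tract, meaning a C followed by 4 or more pyrimidines (C or T) and beginning within 5 bases of the start. Where several C meet this rule, the capitals begin at the C nearest the start, so a tract can reach further upstream.
Rps23: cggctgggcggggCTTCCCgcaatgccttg
Rps27: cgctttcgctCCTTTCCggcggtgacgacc
Rpl12: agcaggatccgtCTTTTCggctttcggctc
Rps6: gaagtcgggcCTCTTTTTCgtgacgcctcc
Rps26: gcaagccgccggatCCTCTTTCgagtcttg
Rpl7a: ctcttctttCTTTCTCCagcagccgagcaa
Rpl22l1: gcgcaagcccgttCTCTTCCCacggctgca
Rpl5: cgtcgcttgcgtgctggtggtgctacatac
Rpl23: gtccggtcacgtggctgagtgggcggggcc
Rpl37a: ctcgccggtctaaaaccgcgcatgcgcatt
Rpsa: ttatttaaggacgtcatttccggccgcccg
The first 7 hold such a tract and the other 4 do not. These starts are examples, without that of Rpl30, the gene with the largest rise. The share of tracts over all matched genes is given below, and a tie of the tract to larger changes was not tested. The windows lie at Rps23 (chr13:90923112-90923141, plus strand), Rps27 (chr3:90213629-90213658, minus strand), Rpl12 (chr2:32961702-32961731, plus strand), Rps6 (chr4:86857348-86857377, minus strand), Rps26 (chr10:128626487-128626516, minus strand) and Rpl7a (chr2:26910797-26910826, plus strand). The others lie at Rpl22l1 (chr3:28805498-28805527, plus strand), Rpl5 (chr5:107900518-107900547, plus strand), Rpl23 (chr11:97782420-97782449, minus strand), Rpl37a (chr1:72711250-72711279, plus strand) and Rpsa (chr9:120127756-120127785, plus strand).

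RefSeq promoter entries, 250 bases before to 50 after the start, matched 64 of the 84 genes. The tract was found in 30 of these 64 (46.9%), against 21.2% of the 27025 promoters of all genes. The core of ETS factor sites, CCGGAA on either strand, stood in 35 of 64 (54.7%) and in 16.7% of all promoters. The E-box CACGTG, the site of CLOCK:BMAL1 and of Myc, stood in 6 (9.38%) against 8.09% of all. The core of the REV-ERB and ROR element, TAGGTCA on either strand, stood in 0 of 64 and in 2.97% of all promoters. AAGATGGC, the core of YY1 sites, was found on either strand in 6 (9.38%) against 3.19%, and TATAAA on either strand in 7 (10.9%) against 15.7%. These are matches of letters in 1 window per start, and they say nothing of binding. An example is the 150 bases before the start of Rpsa (chr9:120127616-120127765, GRCm38.p6, plus strand), the gene with the largest fall among the 83 ribosomal protein genes tested, with the ETS core in capitals on the reverse strand.
Rpsa promoter: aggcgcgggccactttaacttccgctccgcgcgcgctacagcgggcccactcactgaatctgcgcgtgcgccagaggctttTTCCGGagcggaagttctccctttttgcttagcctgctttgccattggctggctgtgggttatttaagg

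EMS404 is a stellate cell line from the liver of a C57Bl6 mouse, immortalized with SV40 and expressing human TLR4. All 8 groups share this background and each has 3 biological replicates, 24 libraries in all. They were vehicle (untreated in the labels, DMSO in the names of the libraries), TGFb, SB431542, which blocks the kinase of the TGFb receptor, SR9011, which activates the nuclear receptor REV-ERB, and CLK8, which keeps CLOCK from pairing with BMAL1. The remaining 3 groups combine TGFb with 1 compound each. Cells had a compound or vehicle for 24 h and TGFb at 10 ng/mL was present for a further 24 h. The labels hold no compound doses and do not say how long cells without TGFb were kept, so TGFb and time in culture cannot be told apart. Levels are FPKM, read counts scaled to gene length and library size. Their sum ranged from 503920 to 610024 per library, 10780 to 11000 genes per library had at least 1 FPKM, and libraries of the same group correlated at r = 0.993 to 0.999 over all genes (24 pairs). Read depth is unknown. Of 13 stellate and mesenchymal markers, 12 were measured. Of these, 9 were at 1 FPKM or more in every library and 2 were under 1 FPKM in every library. The list summed to 1808 to 6326 FPKM. The lists for hepatocytes, macrophages and leukocytes, endothelium and bile duct cells summed to 0 to 0.22, 1.05 to 3.15, 0.86 to 3.31 and 2.51 to 11.4 FPKM. Of these lists, 3 of 5, 3 of 5, 5 of 5 and 4 of 4 genes were measured.

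The ribosomal protein genes were among the most abundant transcripts of the line. They made up 34 of the 50, 58 of the 100 and 73 of the 200 genes with the highest mean FPKM. Their median over the 84 genes was 1091 FPKM, and 77 genes averaged at least 100 FPKM over the libraries. The highest mean levels were those of Rpl35 (3142 FPKM), Rpl38 (2884), Rps2 (2873), Rps21 (2535) and Rpl23a (2523). The lowest were Rps15a (53.1 FPKM), Rps19bp1 (43.3), Rps6 (21.3), Rps27rt (0.745) and Rpl3l (0.00833), the last a paralog of striated muscle. Rpl3l was the only gene of the 84 that did not reach 1 FPKM in 3 libraries, so 83 were tested. Genes of this family have many near-identical processed pseudogenes that share reads with them, and 18 overlaps with measured genes on the opposite strand were found, such as Rpl28 with Ube2s (306 FPKM) and Rpl12 with Lrsam1 (7.31 FPKM). Single levels are uncertain to that extent, since the sources used here do not give whether counting used strand.

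Together the 84 genes accounted for 18.3% ± 0.485 of the summed FPKM in vehicle (mean ± SD, n = 3, as for all groups here). The share was 17.9% ± 0.228 with TGFb, 17.2% ± 0.473 with SB431542, 17.3% ± 0.109 with SB431542 and TGFb, and 17.6% ± 0.387 with CLK8. It was 23.5% ± 1.61 with SR9011 and 22.4% ± 0.772 with SR9011 and TGFb. With CLK8 and TGFb it was 16.0% ± 0.514. The 3 SR9011 libraries, at 24.9%, 21.7% and 23.8%, and the 3 with SR9011 and TGFb lay above all 18 others, and the 3 with CLK8 and TGFb, at 15.9%, 15.6% and 16.6%, lay below all others. These are shares of each library: fewer cells of a type and less RNA per cell cannot be told apart in bulk samples, and a total amount per cell was not measured.

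**Figure D1:**
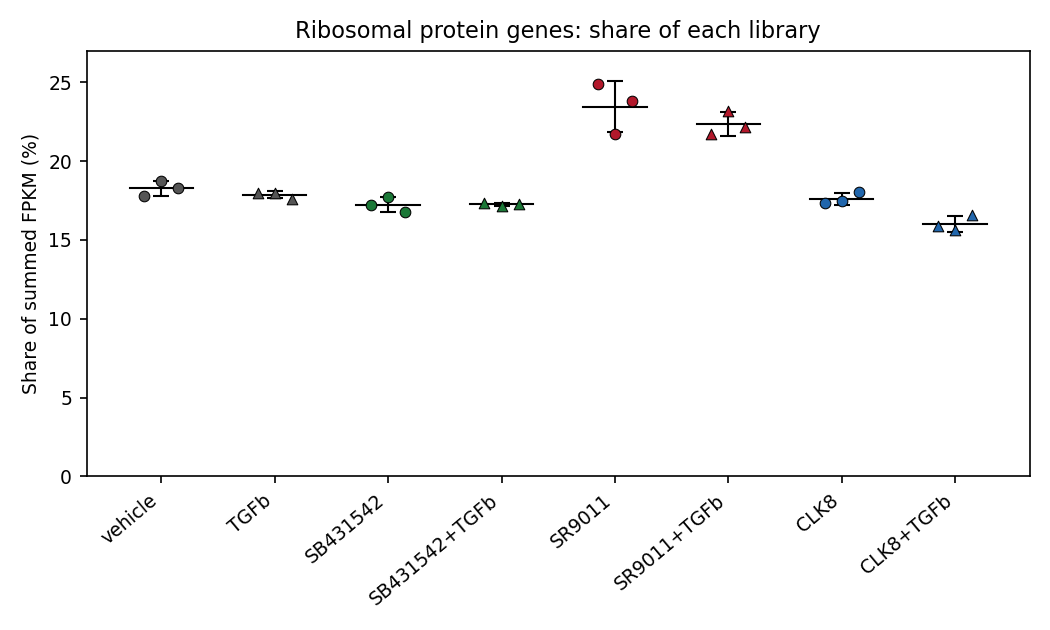
Share of the summed FPKM of each library held by the 84 ribosomal protein genes, in percent. Points are libraries (circles without and triangles with TGFb), lines are means and bars SD (n = 3). The 6 libraries with SR9011 lie at 21.7% to 24.9% and the other 18 at 15.6% to 18.7%.

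SR9011 raised most of the family. Against vehicle, 72 of 83 genes rose and 1 fell, where 40.7% of all 11297 genes tested were called higher and 28.3% lower, 69.1% in all (limma on log2(FPKM + 1), Benjamini-Hochberg adjusted p under 0.05). The median change was 0.40 on the log2 scale, with the middle 50% of genes between 0.29 and 0.54, beside 0.06 for all genes. The 3 SR9011 libraries did not overlap the 3 vehicle libraries for 63 of the 83 genes, beside 67.0% of all genes tested. All 31 small subunit genes, 37 of 43 large subunit genes and the 3 stalk genes rose, as did Rps19bp1 (0.33), which is no part of the ribosome. None of the 5 paralogs tested rose (at an unadjusted p under 0.05 0 rose and 0 fell).

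The largest rise was that of Rpl30, which encodes a large subunit protein (ENSMUSG00000058600, chr15:34440505-34443640, GRCm38, as for the genes below). Its vehicle libraries were at 1514, 1618 and 1616 FPKM and its SR9011 libraries at 3147, 2440.0 and 2935. Every SR9011 library exceeded every vehicle library, with a change of 0.84 (SE 0.079, limma adjusted p = 2.6e-09). Rpl5, which with RPL11 and a small ribosomal RNA can bind and inhibit MDM2, stood at 927, 967 and 936 FPKM in vehicle and 1708, 1468 and 1504 with SR9011 (ENSMUSG00000058558, chr5:107900502-107909005). The groups were again well apart, by 0.72 (SE 0.058, limma adjusted p = 1.4e-10). Rps23, a protein of the decoding centre, went from 1196, 1181 and 1251 FPKM to 2204, 1741 and 2046, a rise of 0.72 (SE 0.071, limma adjusted p = 5.4e-09). In each of these 3 genes SR9011 replicate 2 was the lowest of its group and still above all vehicle libraries.

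Rpl11, the partner of RPL5, differed from it: its change with SR9011 was -0.01 (limma adjusted p = 0.87), with 392, 428 and 411 FPKM in vehicle and 459.6, 367 and 399 with SR9011. Those groups overlapped, and with quantile normalization Rpl11 changed sign, to 0.14. Rpl3, at the peptidyl transferase centre, showed 0.03 (limma adjusted p = 0.61). Of the genes tied to inherited or acquired anaemia, Rps19 rose by 0.57 (limma adjusted p = 1.1e-06) and Rps14 by 0.39 (limma adjusted p = 1.4e-04), the latter with a value of -0.03 after quantile normalization. The stalk proteins recruit the translation factors that hydrolyse GTP. Rplp0 rose by 0.49, Rplp1 by 0.47 and Rplp2 by 0.39 (limma adjusted p = 2.1e-07, 2.8e-06 and 3.6e-04), but with quantile normalization Rplp1 and Rplp2 were at -0.02 and -0.08. Rpl37a, a zinc finger protein of the large subunit, was the 1 gene called lower (-0.18, limma adjusted p = 0.029), and this call was lost when vehicle replicate 2, SR9011 replicate 2 or SR9011 replicate 3 was left out (limma adjusted p = 0.13, 0.13 and 0.16) and reversed to 0.10 with quantile normalization.

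Counts for SR9011 were 71 higher and 2 lower when each library was scaled to the same sum (TPM), and 53 and 5 with quantile normalization, where the median was 0.23. The 87 other genes with a mean of at least 500 FPKM had a median change of -0.34 with SR9011, and the 1314 others with up to 2000 exonic bases a median of -0.02. The part of level and length in the result was not tested. The summed stellate and mesenchymal markers were lower with SR9011 (1808 to 2206 FPKM) than in vehicle (5050 to 5148 FPKM), and the part of this shift in the result was not tested.

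**Figure D2:**
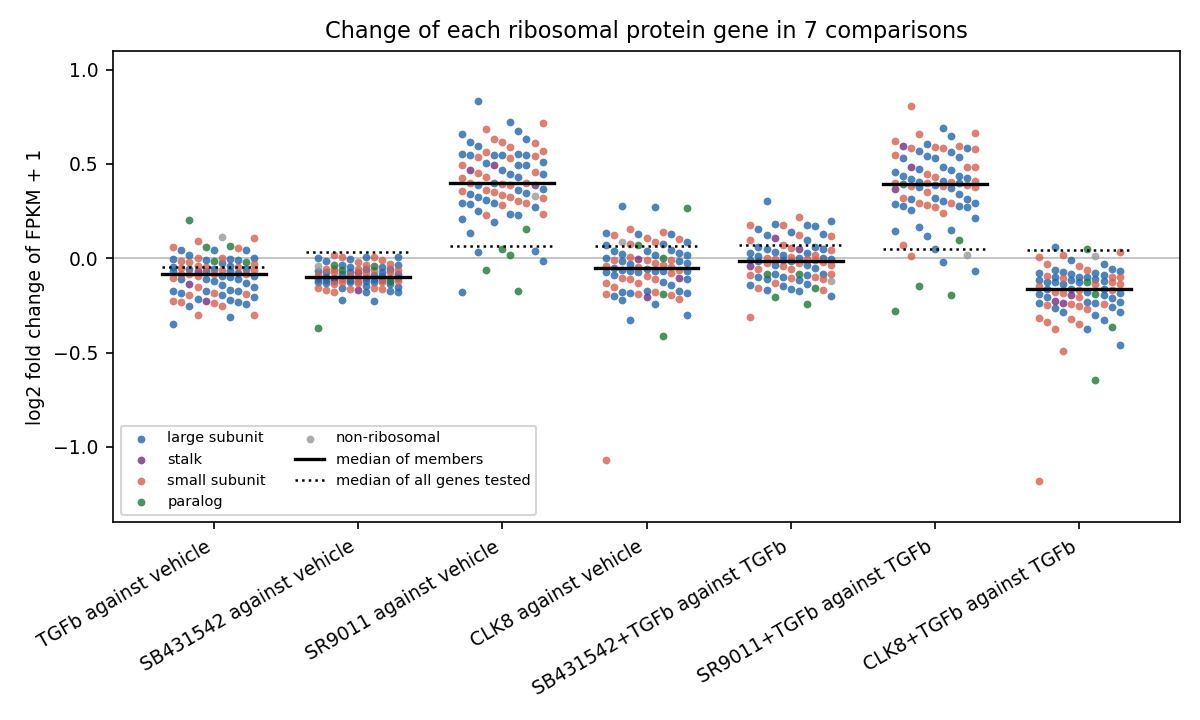
Log2 fold change of FPKM + 1 for each of the 83 ribosomal protein genes tested, by comparison and coloured by the place of the protein in the ribosome. Solid lines are medians of these genes and dotted lines medians of all 11297 genes tested. The SR9011 comparisons stand at medians of 0.40 and 0.39, and the lowest points are Rpsa with CLK8.

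The same family was high with SR9011 when TGFb was present. Against TGFb, 70 genes rose and 2 fell (36.8% and 24.0% of all genes, 60.8% together), with a median of 0.39 beside 0.05 for all genes and with 77 of 83 genes not overlapping between the groups, beside 69.8% of all genes tested. Under TPM the counts were 67 and 4, and with quantile normalization 55 and 6. The largest rise was in Rps27, whose product is a zinc finger protein of the small subunit. TGFb libraries were at 1931, 1809 and 1499.6 FPKM and those with SR9011 and TGFb at 3103, 3332 and 2703. All 3 lay above the TGFb group, by 0.81 (SE 0.126, limma adjusted p = 9.6e-06). Rpl23, another protein that can bind MDM2, rose by 0.69 (SE 0.084, limma adjusted p = 2.5e-07), from 789, 761 and 703 FPKM to 1186, 1297 and 1149. Rps23, Rpl30 and Rpl5 rose by 0.67, 0.65 and 0.54, and the stalk genes Rplp0, Rplp1 and Rplp2 by 0.37, 0.49 and 0.60, of which Rplp0 went to -0.04 with quantile normalization. Both genes that fell were paralogs, Rpl22l1 at -0.28 (limma adjusted p = 0.0042) and Rpl7l1 at -0.20 (limma adjusted p = 0.0037). Values for Rps2 (0.01, limma adjusted p = 0.93) and Rpsa (0.07, limma adjusted p = 0.29) did not pass the test, and Rps2 stood at -0.30 after quantile normalization. The summed stellate and mesenchymal markers were at 2973 to 3165 FPKM with SR9011 and TGFb and 5660.5 to 6326 FPKM with TGFb, and the part of this shift was not tested.

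**Figure D3:**
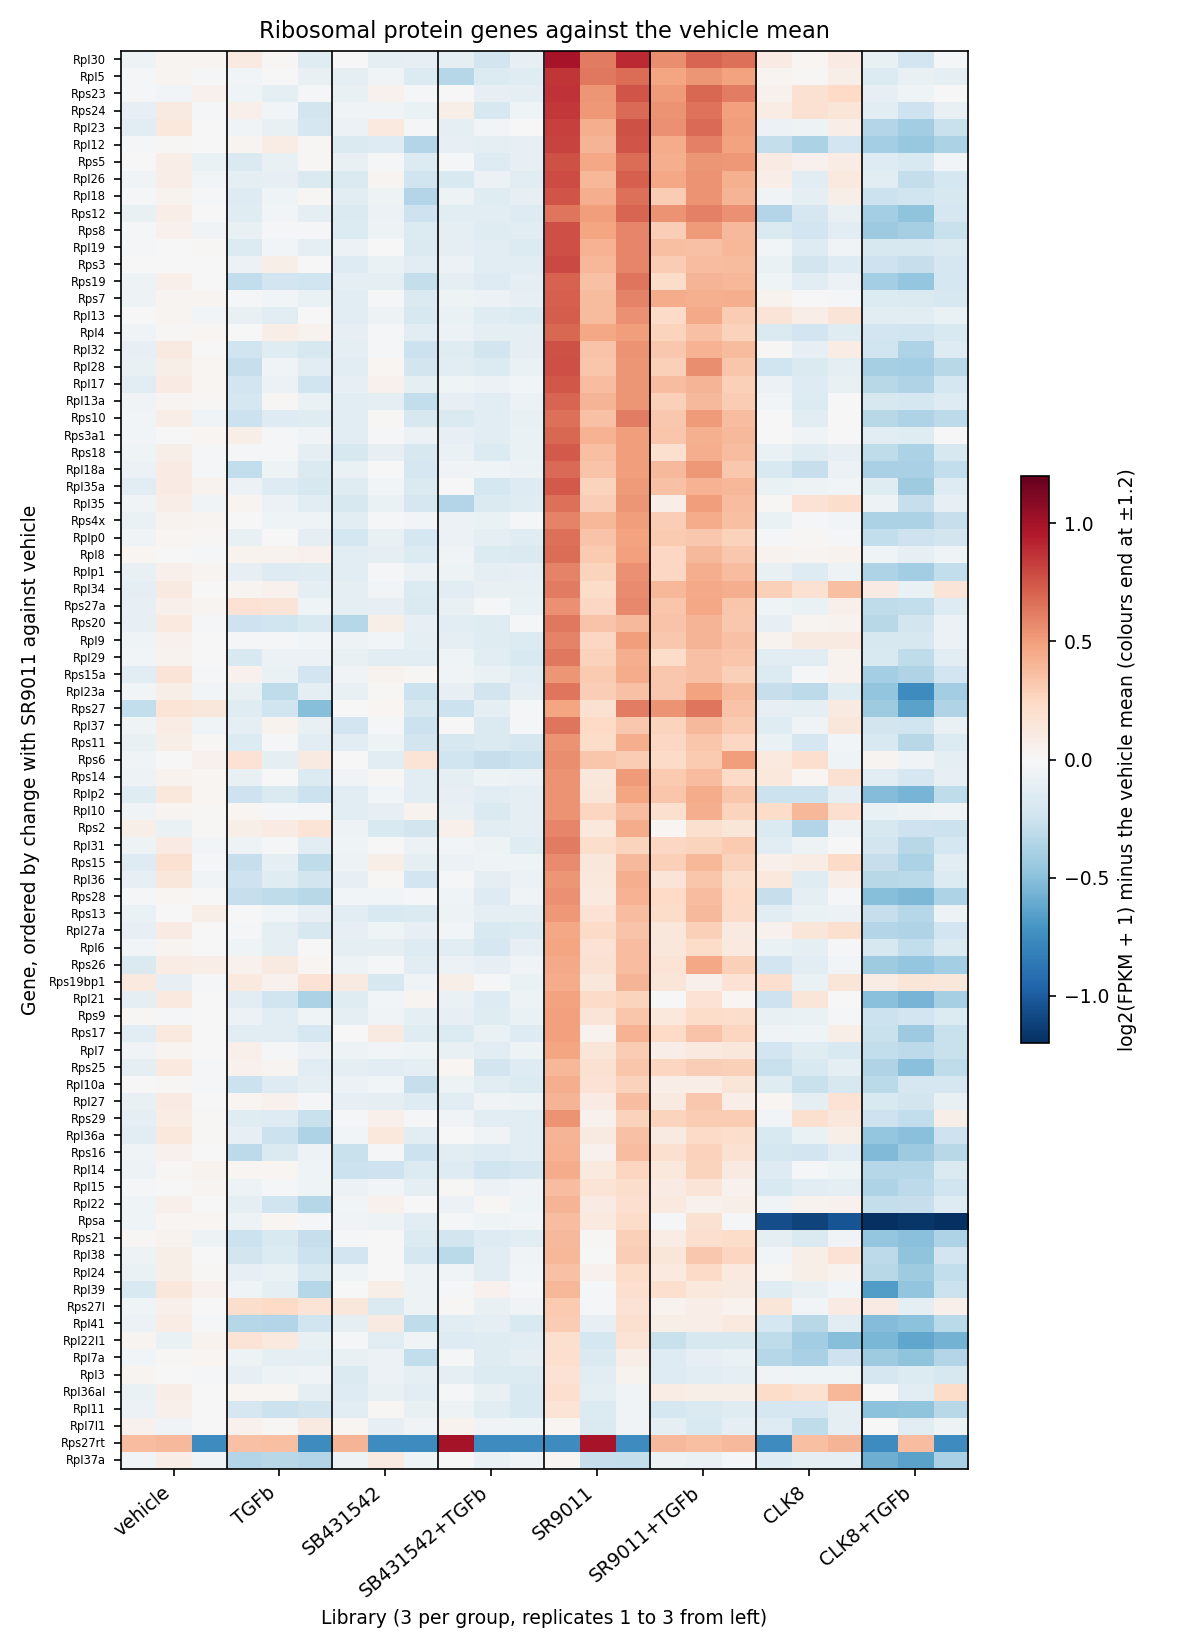
Level of each of the 83 genes tested in each of the 24 libraries, as log2(FPKM + 1) minus the mean of the vehicle libraries, with genes ordered by their change with SR9011. Red fills the SR9011 columns for most genes, replicate 1 of SR9011 is the deepest, and the row of Rpsa is dark blue in the 6 libraries with CLK8.

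TGFb alone moved few of the genes, and mostly down. It raised 1 and lowered 16 of 83 (20.5% and 34.4% of all genes, 54.9% together), with a median of -0.08 beside -0.05 for all genes, so these calls were no more frequent than among all genes. Rpl37a fell most, from 853, 921 and 848 FPKM in vehicle to 685, 691 and 683 with TGFb, a change of -0.35 (SE 0.071, limma adjusted p = 2.6e-04) (ENSMUSG00000046330, chr1:72711290-72713813). The TGFb libraries were close together and below all vehicle libraries. Rpl41, the smallest ribosomal protein, followed with -0.31 (limma adjusted p = 0.0069) and Rps28 with -0.30 (limma adjusted p = 0.0029). The gene that rose was Rps27l, a paralog of Rps27 that p53 can induce, at 0.20 (limma adjusted p = 0.027). That call was lost without vehicle replicate 1 or 3 or without TGFb replicate 1 or 2 (limma adjusted p = 0.088, 0.063, 0.062 and 0.077). TPM gave 6 rises and 8 falls, and quantile normalization 8 and 12, where the median was 0.01. Without vehicle replicate 2 or 3 or TGFb replicate 1 the genes called numbered 8, 9 and 10.

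Few of the genes passed the test with the receptor inhibitor alone. SB431542 against vehicle lowered 2 genes and raised none (5.05% and 11.9% of all genes), at a median of -0.10 beside 0.03. These were Rpl12, at the base of the stalk, with -0.23 (limma adjusted p = 0.044) and Rpl14 with -0.22 (limma adjusted p = 0.024). At an unadjusted p under 0.05, 0 genes were higher and 13 lower. These calls varied with the processing: TPM gave 4 lower, quantile normalization 1 higher and 2 lower, and leaving out vehicle replicate 2, vehicle replicate 3 or SB431542 replicate 1 gave 0 called genes, while leaving out vehicle replicate 1 or SB431542 replicate 3 gave 1.

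In the presence of TGFb, SB431542 raised 3 and lowered 7 genes (38.3% and 21.4% of all genes, 59.7% together), with a median of -0.01 beside 0.07. Rpl37a rose by 0.30 (SE 0.071, limma adjusted p = 8.2e-04), to 871, 824 and 849 FPKM, all above the TGFb libraries. Rps28 rose by 0.22 and Rpl22 by 0.20 (limma adjusted p = 0.022 and 0.012). The row of Rps6 fell by 0.31 (limma adjusted p = 0.0031), Rps27l by 0.24 (limma adjusted p = 0.0082) and Rpl22l1 by 0.21 (limma adjusted p = 0.031). The count of falls varied with the processing: TPM gave 3 higher and 24 lower, quantile normalization 9 and 23, and a fit of the compared groups alone 12 and 14. Without SB431542+TGFb replicate 2 or 3 the called genes numbered 5 and 6.

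With CLK8 the largest change in the family was a fall of Rpsa. This gene encodes a small subunit protein also known as the laminin receptor (ENSMUSG00000032518, chr9:120127689-120132369). Its libraries were at 938, 991 and 991 FPKM in vehicle and 465, 449 and 475 with CLK8. With TGFb they were at 934, 992 and 958 FPKM, and with CLK8 and TGFb at 423, 433 and 414. In both settings the CLK8 libraries were under 500 FPKM and far below every other library of the study, whose lowest value was 894 FPKM. The changes were -1.07 (SE 0.059, limma adjusted p = 2.4e-12) and -1.18 (SE 0.059, limma adjusted p = 8.1e-13) and passed the test in the same direction in all 16 alternatives run for each. Group means of Rpsa were otherwise 924 ± 26.5 FPKM with SB431542, 949.6 ± 8.58 with SB431542 and TGFb, 1148 ± 102 with SR9011 and 1013 ± 82.1 with SR9011 and TGFb (± SD, n = 3).

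Among the other genes, CLK8 against vehicle gave modest changes. In all, 3 rose and 14 fell (30.3% and 13.6% of all genes, 43.9% together), with a median of -0.05 beside 0.06. After Rpsa the largest falls were Rpl22l1 at -0.41 (limma adjusted p = 2.1e-04) and Rpl7a at -0.32 (limma adjusted p = 9.8e-04). Rpl34 rose by 0.28, Rpl10, which joins the large subunit late in its maturation, by 0.27, and Rpl36al by 0.27 (limma adjusted p = 0.0091, 0.0032 and 0.0095). With TPM 5 rose and 20 fell, and quantile normalization turned the balance to 19 higher and 12 lower. Without vehicle replicate 2 or CLK8 replicate 2 the called genes numbered 9 and 11.

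With TGFb present, CLK8 lowered 36 of 83 genes and raised none (13.3% and 27.7% of all genes, 41.1% together), with a median of -0.16 beside 0.05. At an unadjusted p under 0.05, 0 genes were higher and 44 lower. The falls took in 17 of 43 large subunit, 14 of 31 small subunit, 3 of 3 stalk and 2 of 5 paralog genes. Rpl22l1 changed by -0.64 (SE 0.080, limma adjusted p = 1.0e-06). Rps26, at the mRNA exit channel, went from 2123, 2200.3 and 2079 FPKM with TGFb to 1524, 1480.3 and 1543, a change of -0.49 (SE 0.079, limma adjusted p = 2.7e-05), with no overlap. Rpl12 changed by -0.46 (SE 0.076, limma adjusted p = 4.8e-05), and Rplp0, Rplp1 and Rplp2 by -0.19, -0.23 and -0.24, of which Rplp0 went to 0.01 with quantile normalization. TPM gave 0 higher and 35 lower, quantile normalization 4 and 22 with a median of -0.03. The count was 23 without CLK8+TGFb replicate 2.

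**Figure D4:**
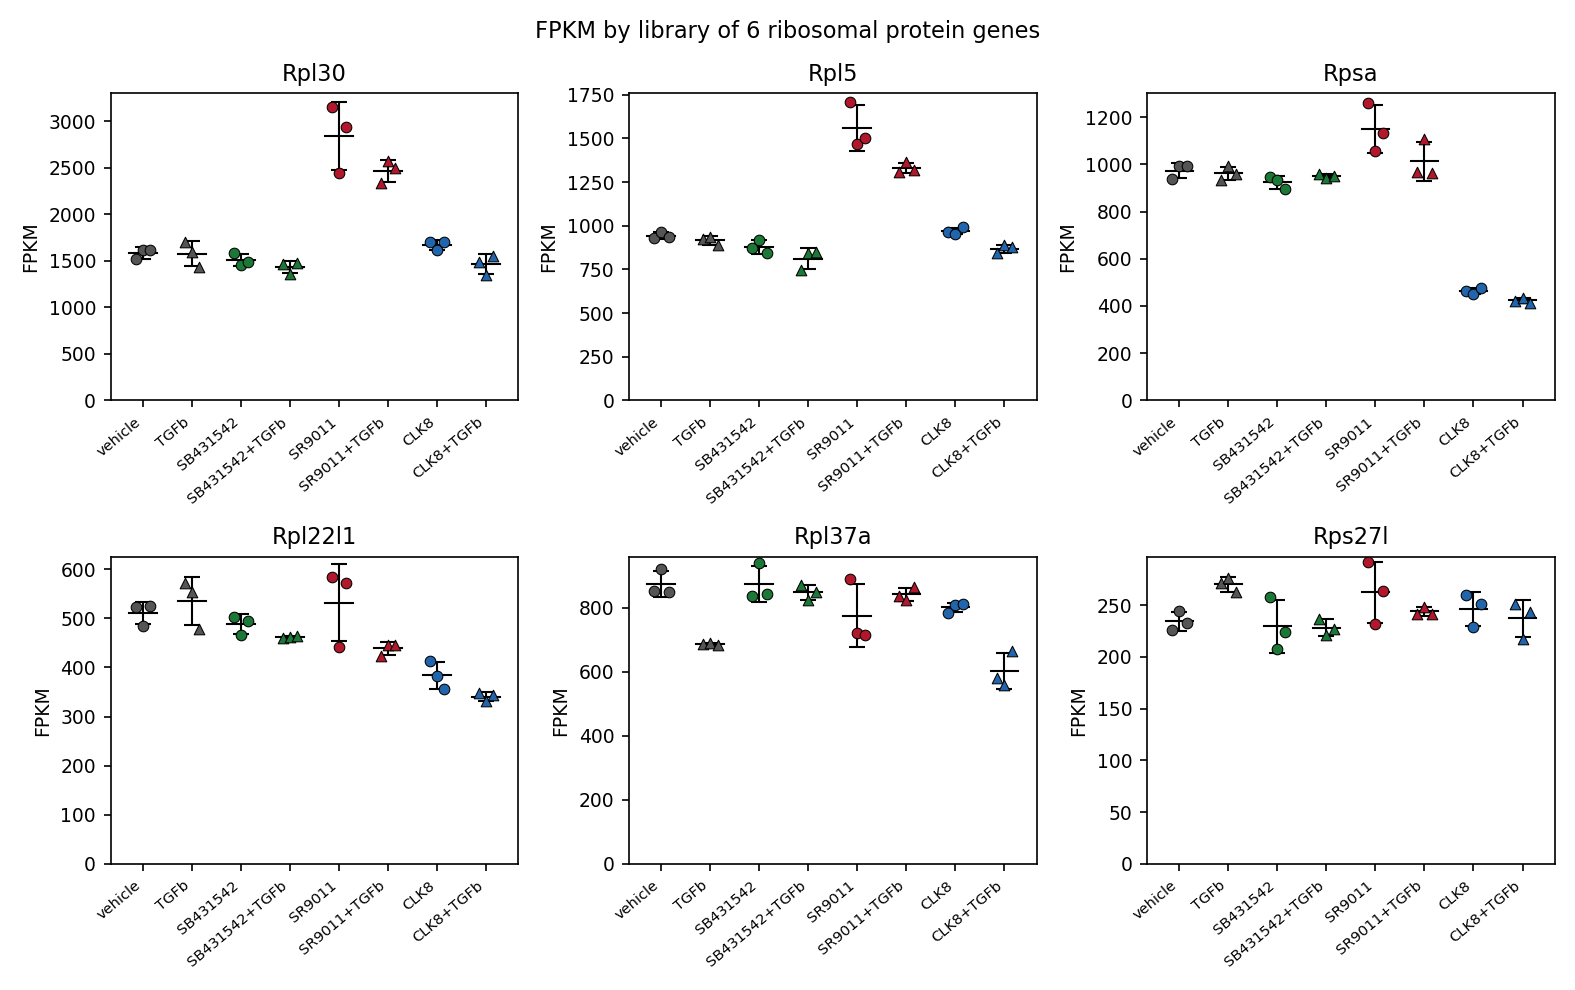
FPKM of Rpl30, Rpl5, Rpsa, Rpl22l1, Rpl37a and Rps27l in all 24 libraries, with mean and SD by group (n = 3, circles without and triangles with TGFb). Rpl30 and Rpl5 are high in the 6 libraries with SR9011, Rpsa is low in the 6 with CLK8, and Rpl37a is low in the TGFb and the CLK8+TGFb groups.

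For several paralogs the values differed from those of the genes they resemble. RPL22 binds RNA and is known to repress the gene of its paralog RPL22L1, which can take its place in the ribosome. In these cells Rpl22l1 (ENSMUSG00000039221, chr3:28805436-28807424) was the more abundant, at 511 ± 23.1 FPKM in vehicle against 96.0 ± 3.99 for Rpl22 (± SD, n = 3, per length). Rpl22l1 was at 412, 382 and 357 FPKM with CLK8 and 348, 331 and 343 with CLK8 and TGFb, below all vehicle and all TGFb libraries. Rpl22 showed 0.02 (limma adjusted p = 0.87) and -0.01 (limma adjusted p = 0.93) in these comparisons. With SR9011 and TGFb against TGFb, Rpl22 rose by 0.31 (limma adjusted p = 2.2e-04) where Rpl22l1 fell, and with SR9011 alone Rpl22 rose by 0.24 (limma adjusted p = 0.0024) while Rpl22l1 showed 0.05 (limma adjusted p = 0.6). Rps27l had 0.15 (limma adjusted p = 0.073) with SR9011, where Rps27 rose by 0.42 (limma adjusted p = 0.0052, 0.057 without vehicle replicate 1). Rpl36a rose by 0.29 with SR9011 (limma adjusted p = 0.0074, 0.056 without vehicle replicate 1) and Rpl36al had 0.02 (limma adjusted p = 0.86), and Rpl7 rose by 0.31 (limma adjusted p = 8.4e-05) against -0.06 (limma adjusted p = 0.31) for Rpl7l1. The differences between the genes of a pair were not tested.

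The row of Rps6, the substrate of S6 kinase, needs a separate reading. It averaged 21.3 FPKM over the libraries, while the row of its processed pseudogene Rps6-ps4 averaged 1184 FPKM, near the level of other family members. Rps6 made up 1.36% to 2.32% of the sum of both rows. Summed, the pair rose with SR9011 by 0.66 (limma adjusted p = 9.6e-10) and with SR9011 and TGFb against TGFb by 0.45 (limma adjusted p = 7.4e-07), beside 0.40 and 0.29 for the Rps6 row alone. With CLK8 and TGFb the sum fell by 0.25 (limma adjusted p = 0.0019), and with SB431542 and TGFb by 0.14 (limma adjusted p = 0.0496, just under the threshold). Summing the rows was chosen after seeing the data.

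Few genes had a response to a compound that differed with and without TGFb, as tested by the interaction. For SB431542, 2 were higher and 1 lower (21.5% and 12.8% of all genes, 34.3% together), namely Rpl37a (0.31, limma adjusted p = 0.022), Rps19 (0.29, limma adjusted p = 0.049) and Rps6 (-0.33, limma adjusted p = 0.038). Summing Rps6 with its pseudogene left -0.03 (limma adjusted p = 0.81). For SR9011, 1 was higher and 5 lower (16.6% and 15.3%, 31.9% together). Rpl37a changed by 0.47 (limma adjusted p = 0.001): it stood at 889, 721 and 716 FPKM with SR9011 and 838, 824 and 865 with SR9011 and TGFb, against the fall from vehicle to TGFb given above. Rps2 (-0.38, limma adjusted p = 0.027), Rpl22l1 (-0.33, limma adjusted p = 0.029) and Rps19bp1 (-0.32, limma adjusted p = 0.041) had the largest negative values. For CLK8, 0 were higher and 4 lower (4.58% and 3.39%, 7.97% together), and at an unadjusted p under 0.05 0 and 10. Rps26 (-0.36, limma adjusted p = 0.046), Rpl27a (-0.33, limma adjusted p = 0.03) and Rpl10 (-0.33, limma adjusted p = 0.045) had the largest values. Quantile normalization gave 1 higher and 8 lower for SB431542, and 8 higher and 16 lower for SR9011. For SR9011, leaving out SR9011 replicate 1 turned the calls to 5 higher and 1 lower, leaving out SR9011 replicate 2 gave 1 and 20, and leaving out vehicle replicate 2, SR9011 replicate 3 or SR9011+TGFb replicate 1 gave 3, 2 and 2 calls in all. For SB431542, 0 calls were left without vehicle replicate 2 or SB431542 replicate 1 or 3, 1 without TGFb replicate 3 or any SB431542+TGFb replicate, and 7 without SB431542 replicate 2. For CLK8, 0 were left without vehicle replicate 1, TGFb replicate 1 or 2, CLK8 replicate 2 or CLK8+TGFb replicate 1 or 2, 1 without vehicle replicate 3 or CLK8 replicate 3, and 2 without CLK8+TGFb replicate 3.

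Genes that build ribosomes had other counts than the genes of the finished particle. Of 38 biogenesis factors, TGFb raised 32 and lowered 0 (0 also at an unadjusted p under 0.05), beside 20.5% and 34.4% of all genes. Their median was 0.39, beside -0.08 for the ribosomal protein genes. Rrp12, which exports pre-ribosomes, went from 6.59 to 11.6 FPKM (0.73, SE 0.094, limma adjusted p = 7.2e-07). Nop58, a core protein of the snoRNPs that methylate rRNA, changed by 0.44 (limma adjusted p = 1.2e-06) and Bop1, which processes large subunit rRNA, by 0.66 (limma adjusted p = 3.8e-06). Against TGFb, SB431542 with TGFb lowered 33 of them and raised 0 (21.4% and 38.3% of all genes). The median was -0.43, and at an unadjusted p under 0.05 the counts were 34 and 0. SR9011 with TGFb lowered 24 and raised 2 (24.0% and 36.8% of all genes), with a median of -0.25. Among those lowered were Nop58 (-0.52, limma adjusted p = 6.4e-08), Tsr1 (-0.67, limma adjusted p = 5.2e-07) and the pseudouridine synthase gene Dkc1 (-0.67, limma adjusted p = 6.0e-07). In that comparison 70 ribosomal protein genes rose while 24 biogenesis genes fell. SR9011 alone raised 16 and lowered 4 (40.7% and 28.3% of all genes), with a median of 0.13. These rises were about as frequent as among all genes, and the falls less frequent. The smallest p were those of Rrp12 (0.79, limma adjusted p = 1.1e-07), Sbds (0.45, limma adjusted p = 1.3e-07) and the RNA polymerase I factor Ubtf (0.43, limma adjusted p = 2.7e-07). CLK8 raised 1 and lowered 8 (30.3% and 13.6% of all genes). With TGFb it raised 1 and lowered 11 against TGFb (27.7% and 13.3% of all genes). Npm1, a nucleolar chaperone, fell in both (-0.32 (limma adjusted p = 2.7e-05) and -0.37 (limma adjusted p = 5.7e-06)). SB431542 alone lowered 6 and raised 0 (unadjusted 16 and 0), beside 5.05% and 11.9% of all genes. The SR9011 interaction was called lower for 30 of the 38 and higher for 0 (unadjusted 33 and 0), beside 15.3% and 16.6% of all genes. With TPM and quantile normalization, TGFb raised 34 and 33, and SR9011 with TGFb lowered 28 and 25.

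**Figure D5:**
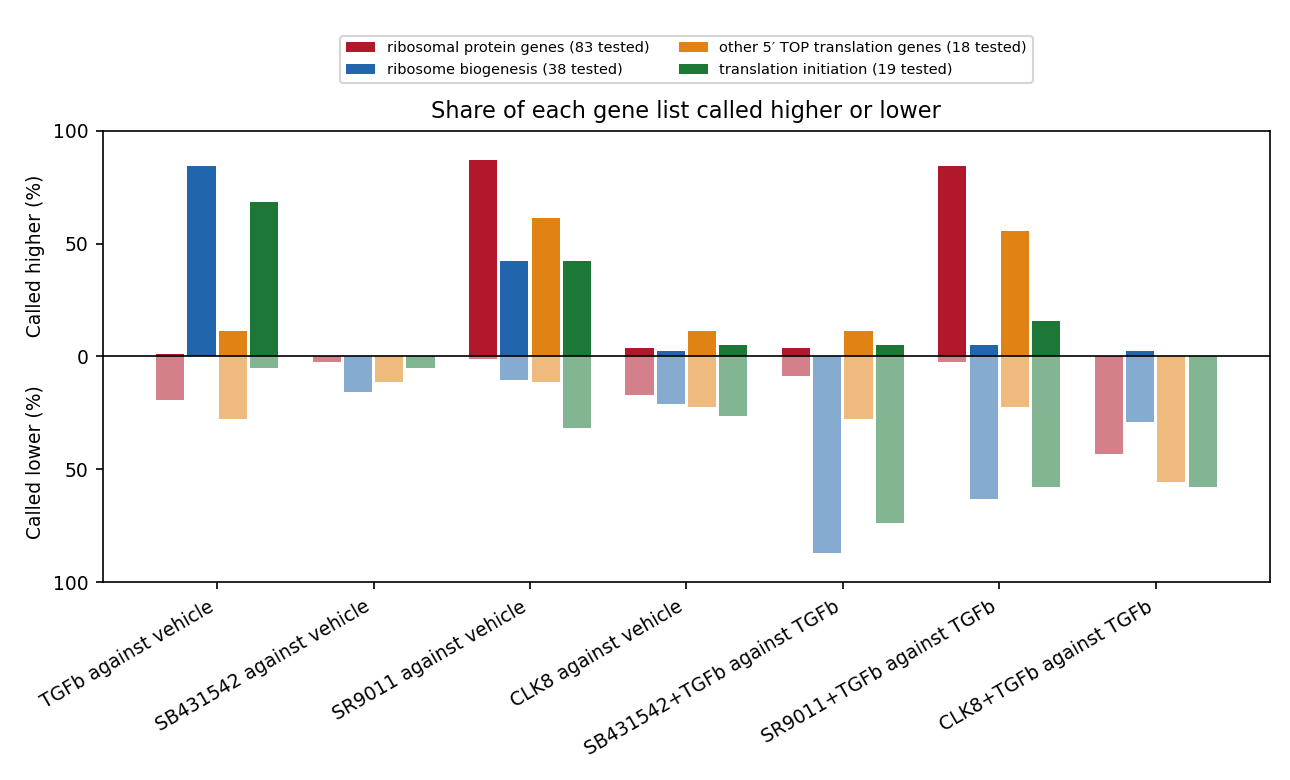
Percent of each gene list called higher (upward, dark) or lower (downward, pale) by limma in 7 comparisons. TGFb raised 32 of 38 biogenesis genes and 1 of 83 ribosomal protein genes, beside 20.5% of all genes tested. With SR9011 and TGFb against TGFb 70 of 83 ribosomal protein genes rose and 24 of 38 biogenesis genes fell, beside 36.8% higher and 24.0% lower of all genes.

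Other translation genes were counted in the same way. Of 18 other genes with TOP mRNAs, mostly of translation, SR9011 raised 11 and lowered 2 (40.7% and 28.3% of all genes). The smallest p were those of Hnrnpa1 (-0.89, limma adjusted p = 3.5e-12), the small subunit scaffold Rack1 (0.73, limma adjusted p = 3.5e-10) and the elongation factor Eef2 (0.63, limma adjusted p = 5.0e-10). With SR9011 and TGFb against TGFb 10 rose and 4 fell (36.8% and 24.0% of all genes). With CLK8 and TGFb against TGFb 10 fell and 0 rose (unadjusted 12 and 1), beside 13.3% and 27.7% of all genes. Eif3e was among those that fell there (-0.32, limma adjusted p = 2.4e-05), and TPM gave 3 higher and 9 lower. TGFb raised 2 and lowered 5 (20.5% and 34.4% of all genes), but TPM gave 6 and 2 and quantile normalization 5 and 2. Of 19 genes of translation initiation, TGFb raised 13 and lowered 1 (20.5% and 34.4% of all genes). The smallest p were those of the eIF2 subunit genes Eif2s2 (0.50, limma adjusted p = 1.7e-07) and Eif2s1 (0.47, limma adjusted p = 6.3e-07). The list also holds the eIF4E-binding protein genes Eif4ebp1, which rose (0.41, limma adjusted p = 3.9e-05), and Eif4ebp2, the 1 gene lowered (-0.21, limma adjusted p = 8.1e-04). Against TGFb, SB431542 with TGFb lowered 14 of the 19 and raised 1 (21.4% and 38.3% of all genes). SR9011 with TGFb lowered 11 and raised 3 (24.0% and 36.8% of all genes), with the helicase gene Eif4a1 at -0.48 (limma adjusted p = 6.1e-09). CLK8 with TGFb lowered 11 and raised 0 (unadjusted 11 and 0), beside 13.3% and 27.7% of all genes.

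Regulators of the family were compared as well. Myc, which drives transcription of ribosomal and biogenesis genes, rose with TGFb from 35.8 to 68.3 FPKM (0.91, SE 0.107, limma adjusted p = 2.6e-07) and had 0.15 (limma adjusted p = 0.2) with SR9011. Against TGFb, Myc was lower with SB431542 (-0.99, limma adjusted p = 6.0e-08), SR9011 (-0.58, limma adjusted p = 7.5e-05) and CLK8 (-0.44, limma adjusted p = 0.0023). Of the 18 regulators, SR9011 raised 11 and lowered 3, where 40.7% of all genes were higher and 28.3% lower. Mxd4, a Myc antagonist, fell (-1.17, limma adjusted p = 2.1e-14), as did Mycn (-1.89, limma adjusted p = 4.9e-14), and Atf4, the effector of the integrated stress response, rose (0.97, limma adjusted p = 9.4e-11). Of the 5 genes of the MDM2 and p53 arm, SR9011 raised 4 and lowered 0 (unadjusted 4 and 0, with the same shares of all genes), among them Cdkn1a (1.54, limma adjusted p = 1.9e-11), Ccng1 (0.65, limma adjusted p = 2.1e-10) and Mdm2 (0.46, limma adjusted p = 2.6e-06), and TGFb raised 3 and lowered 0 (unadjusted 3 and 0, beside 20.5% and 34.4% of all genes). No link of these genes to the levels of the ribosomal protein genes was tested.

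Median changes of genes with and without the sequence features were set side by side. With SR9011 the 30 genes with a TOP-like tract had a median of 0.39 and the 33 without 0.36. The 35 with an ETS core had 0.37 and the 28 without 0.44. With CLK8 and TGFb the medians were -0.20 with the tract and -0.16 without, and -0.18 for both ETS classes. These medians describe the 63 matched genes that passed the filter, and their differences were not tested.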

How the data were processed

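RNA-seq was available for 24 libraries of EMS404 cells in 8 groups of 3. The values are FPKM per gene as deposited by the authors. Tools named in the submitters' processing notes are HISAT2 2.0.4, Bowtie2 2.2.5, RSEM and DESeq2, with build mm10, without their settings. FPKM hold no read depth, so no counting interval is given, and the precision comes from the spread over 3 replicates. The labels call the replicates biological. Nothing says that they are separate cultures, so p-values measure the spread between these samples.

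Values were tested as log2(FPKM + 1) with limma 3.58.1 (R 4.3.3, trend and robust), all 8 groups in 1 model with 16 residual degrees of freedom, on 11297 of 16604 genes with at least 1 FPKM in 3 libraries. A log2 difference on this scale understates changes of low genes. Adjusted p-values are Benjamini-Hochberg over all genes tested in each of 10 comparisons, with a threshold of 0.05. The scripts were tested on simulated data. Python 3.11.15, numpy 2.4.6, pandas 2.3.3 and matplotlib 3.10.9 were used for the rest.

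Genes named are, in each comparison, the 3 with the largest called rise and fall, the 5 most and least abundant, the stalk genes, Rpsa, Rpl3, Rpl5, Rpl11, Rps6, Rps14, Rps19, both genes of each paralog pair, up to 3 genes of each other list by smallest adjusted p, and Myc. Eif4ebp1 and Eif4ebp2 are named besides, to show what the initiation list holds. The genes and lists were chosen with earlier results of these data known. Another list is not reported here. The 8 snoRNA host genes of 1 further list were not analysed here, as 0 were found in the table. Positions are from GENCODE M21 and sequences from RefSeq, both on GRCm38. Replicate numbers were checked for pairing: in none of the 7 comparisons did all 3 same-number pairs have residual correlations over 0.1 (-0.184 to 0.317), so the fit has no block. Alternatives were pseudocounts of 0.1 and 0.5, no filter, a minimum of 5 FPKM, TPM, quantile normalization, no trend, the compared groups alone, a replicate block, leaving out each library and, added after seeing the data, Rps6 summed with Rps6-ps4.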

Additional observations from a re-analysis of the deposited data

Results flagged for a closer look

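The interaction tests found genes whose response to a compound differed with and without TGFb (limma, adjusted p under 0.05). For SB431542 there were 3 genes of 83, where 34.3% of all genes were called: Rpl37a at 0.31, Rps19 at 0.29 and Rps6 at -0.33. For SR9011 there were 6 of 83, where 31.9% of all genes were called, among them Rpl37a at 0.47, Rps2 at -0.38, Rpl22l1 at -0.33 and Rps19bp1 at -0.32. For CLK8 there were 4 of 83, where 7.97% of all genes were called, among them Rps26 at -0.36, Rpl27a at -0.33 and Rpl10 at -0.33. The Rps6 value was -0.03 when the row was summed with Rps6-ps4.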

How the results depend on the processing

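FPKM carry no depth, so differences in precision between libraries could not be weighed, and 3 replicates limit what can be called. The counts for SR9011 (69 to 77 without 1 library) and for SR9011 with TGFb (69 to 72) stayed within 1.5 times their value in all alternatives run. Without 1 library the other counts ranged from 8 to 18 for TGFb, 0 to 3 for SB431542, 9 to 20 for CLK8, 5 to 9 for SB431542 with TGFb and 23 to 33 for CLK8 with TGFb. The interaction counts ranged from 0 to 7 for SB431542, 2 to 21 for SR9011 and 0 to 4 for CLK8. Without SR9011 replicate 1 the SR9011 interaction count of 6 turned to 5 higher and 1 lower, with a median of 0.035, and without SR9011 replicate 2 the median was -0.13. With no filter the counts were 1 for SB431542 and 1, 3 and 2 for the SB431542, SR9011 and CLK8 interactions. TPM gave 4 for SB431542, 27 for SB431542 with TGFb and 14 for the SR9011 interaction, and the compared groups alone gave 26 for SB431542 with TGFb. Quantile normalization gave 31 for CLK8, 32 for SB431542 with TGFb and 9, 24 and 7 for the 3 interactions. It turned the medians for TGFb, CLK8 and the SB431542 interaction to 0.014, 0.0019 and -0.014. It also turned, with SR9011, Rpl37a to 0.10, Rpl11 to 0.14, Rplp1 to -0.015, Rplp2 to -0.080, Rps14 to -0.033, Rpl38 to -0.16 and Rps21 to -0.17. The same held with SR9011 and TGFb for Rplp0 (-0.036) and Rps2 (-0.30), with CLK8 and TGFb for Rplp0 (0.014), Rps14 (0.12) and Rps21 (0.0036), and with TGFb for Rpsa (0.13). The cause was not tested for any of these changes. The samples share only a replicate number, and the fit with a replicate block gave 14 called genes for TGFb, 1 for SB431542, 74 for SR9011, 17 for CLK8, 10 for SB431542 with TGFb, 72 for SR9011 with TGFb, 34 for CLK8 with TGFb and 2, 6 and 3 for the interactions.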
